A study of Homo sapiens with 9 samples.

Results

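TRIM28 (also called KAP1 or TIF1β) is the scaffold of a gene-silencing complex, and its RNA was described here together with that of 9 partners and relatives. These were its paralogs TRIM24 and TRIM33, the histone methyltransferase SETDB1 and its cofactor ATF7IP, the heterochromatin protein 1 (HP1) genes CBX1, CBX3 and CBX5, and MORC2 and MPHOSPH8, which act with the HUSH silencing complex. The 10 genes were found by name among the 58735 genes of the deposited count table. TRIM28 was chosen by its measured fold changes against the vehicle, which were below 1 with both inhibitors of the study, so its values in the 3 conditions are given as a description, without a test. The other 9 genes were chosen for their known association with it.

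RNA was sequenced from MIA PaCa-2, an established human pancreatic cancer cell line labelled as wild type, after 24 h with 1 μM SCH772984, 1 μM compound 1 or 0.1% dimethyl sulfoxide (DMSO). SCH772984 inhibits the kinases ERK1/2, compound 1 inhibits the kinases TBK1 and IKKε, and DMSO is the vehicle. The study asked which genes ERK and TBK1–IKKε regulate in common. Each condition had 3 libraries of 1 cell line, and nothing in the labels says that they came from separate cultures, so p-values measure the spread between these libraries, which may be technical.

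TRIM28 does not bind a DNA sequence by itself. Zinc finger proteins with a KRAB domain bring it to their target sites, where it recruits SETDB1, which trimethylates lysine 9 of histone H3 (H3K9me3), and HP1 proteins, which read that mark and compact the chromatin. The complex is best known for keeping retroelements and imprinted loci silent, and attachment of the small protein SUMO to TRIM28 helps to recruit SETDB1.

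Library totals were 9464432 to 10286223 counts with DMSO, 9652741 to 9840769 with compound 1 and 11056977 to 13887859 with SCH772984. Levels are given as CPM, which relates counts to the TMM-scaled library total over the 9 libraries, or as RPKM, the same per kilobase of gene length. A gene was called lower or higher at an adjusted p under 0.05 by edgeR over all genes, a threshold passed by 72.8% of 13834 genes with SCH772984 (35.5% lower, 37.2% higher), by 0.864% of 12849 genes with compound 1 and by 66.3% of 13863 genes between the inhibitors. With SCH772984, 11 of 12 tested ERK output genes were lower, SPRY4 (log2 fold change of -6.81, SE 0.11) and ETV5 (-6.54, SE 0.15) among them, and EPHA4, an ephrin receptor, was higher (1.48, SE 0.06). The epithelial keratins KRT8 (8578 to 24914 counts per library), KRT18 and KRT19 were expressed, while EPCAM was at 0 and CDH1 at 0 to 5 counts. KRT18 (-2.40, SE 0.06) and KRT8 (-1.69, SE 0.06) were called lower with SCH772984 and KRT19 was not called. All 5 acinar and islet markers were at 0. Of the 5 leukocyte, endothelial and fibroblast markers, PTPRC was at 0, PECAM1, VWF and DCN reached at most 4 counts, and COL1A1 had 1 to 4 counts with DMSO or compound 1 and 28 to 48 with SCH772984. Mitochondrial genes took 3.33% to 3.98% of the counts with DMSO, 3.41% to 3.92% with compound 1 and 6.23% to 7.52% with SCH772984, and the 10 most abundant genes of each library took 5.80% to 6.03%, 5.64% to 6.02% and 7.78% to 8.58%. The part of these shares and of other cells in the results was not tested. Replicate 1 of compound 1 stood apart, differing from replicates 2 and 3 by a chi-square per degree of freedom of 10.1 and 7.61 against 2.66 between those 2. Its long genes were low, with a median log2 ratio to the other two of 0.15 for genes under 2000 bases and -0.15 for genes of 8000 bases and over, and the values of the 10 genes with compound 1 are given without it as well.

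TRIM28 was by far the most abundant of the 10 genes per length. Its DMSO level was 283 RPKM ± 9.57 (SD, n = 3), against 63.6 ± 0.612 for CBX3 and 46.1 ± 2.50 for CBX1, and in CPM it ranked 79th among all genes. MPHOSPH8 (12.5 RPKM), ATF7IP (11.2) and MORC2 (10.7) followed. TRIM33 (6.77), TRIM24 (6.73) and CBX5 (6.34) were lower, and SETDB1, the methyltransferase, was last with 4.03 RPKM. Neighbours in this order whose DMSO libraries overlapped were MPHOSPH8 and ATF7IP, ATF7IP and MORC2, TRIM33 and TRIM24, and TRIM24 and CBX5. The lowest TRIM28 library, one with SCH772984, still held 130 RPKM, above the highest library of CBX3, one with compound 1 at 78.2 RPKM. Fewer RNA molecules per cell and a change in the makeup of the cells cannot be told apart in bulk RNA.

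**Figure D1:**
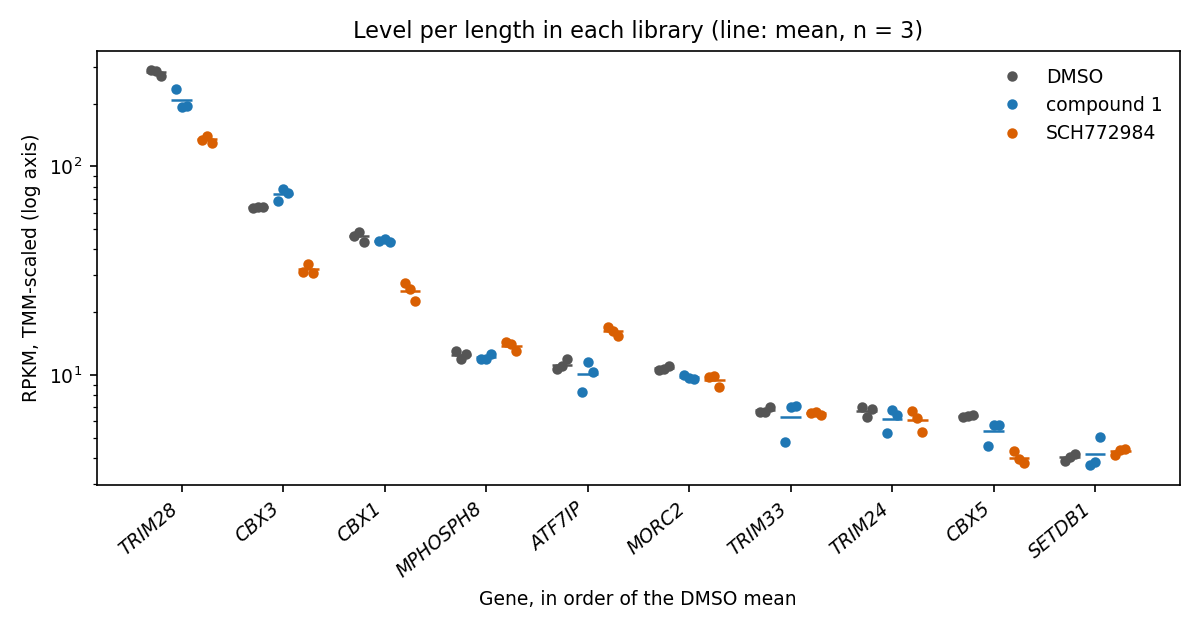
Level of each gene per length (RPKM, log axis) in each of the 3 DMSO (grey), 3 compound 1 (blue) and 3 SCH772984 (orange) libraries, with a line at the mean, in order of the DMSO mean. TRIM28 and the 3 HP1 genes (CBX1, CBX3, CBX5) have SCH772984 points below all DMSO points, MORC2 has them below by a smaller margin, ATF7IP and, barely, MPHOSPH8 have them above, and SETDB1 has the lowest DMSO mean with 4.03 RPKM.

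TRIM28 (ENSG00000130726, chr19:58544091-58550722 on GRCh38, plus strand) had 1164, 1162 and 1096 CPM in the 3 DMSO libraries. Compound 1 libraries held 947, 779 and 783 CPM, and SCH772984 libraries held 541, 567 and 523 CPM. The 3 groups did not overlap, and the compound 1 library nearest to DMSO was replicate 1. The log2 fold change against DMSO was -1.08 (SE 0.06) with SCH772984, a fold of 0.475, and -0.45 (SE 0.07) with compound 1, a fold of 0.734. These 2 differences chose the gene and support nothing further, and they share the DMSO libraries. Leaving out each library in turn gave -1.12 to -1.05 with SCH772984 and -0.54 to -0.40 with compound 1, the largest fall being the one without replicate 1 of compound 1. Between the inhibitors the log2 fold change was -0.62 (SE 0.09), SCH772984 being the lower, a description as well since it rests on the libraries that chose the gene.

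The paralogs TRIM24 and TRIM33, which share the RING, B-box and bromodomain layout of TRIM28, did not pass the test with either inhibitor as fitted here. TRIM24 (TIF1α, a nuclear receptor coregulator, ENSG00000122779, chr7:138460334-138589993, plus strand) had 64.9, 58.1 and 63.2 CPM with DMSO, 48.5, 63.0 and 59.1 with compound 1, and 61.8, 57.2 and 49.0 with SCH772984. The groups overlapped in all 3 comparisons. Its log2 fold change with SCH772984 was -0.16 (95% interval -0.33 to 0.01, adjusted p = 0.0875 by edgeR). It was called lower without DMSO replicate 2 (-0.22, adjusted p = 0.0372 by edgeR), without SCH772984 replicate 1 (-0.25, adjusted p = 0.0137) and with no filter on low counts (-0.19, adjusted p = 0.0476). TRIM33 (TIF1γ, a regulator of SMAD signaling, ENSG00000197323, chr1:114392777-114511160, minus strand) had 63.4, 63.7 and 67.4 CPM with DMSO, 45.9, 67.2 and 68.2 with compound 1, and 63.2, 63.5 and 61.2 with SCH772984. It too overlapped between groups, and its low value lay in replicate 1 of compound 1. Its log2 fold change with SCH772984 was -0.06 (95% interval -0.21 to 0.10, adjusted p = 0.516 by edgeR).

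Both of these genes are long, at 9223 and 9574 bases of exon against 4034 for TRIM28. With the dependence on gene length taken out of each library, both were called lower with SCH772984, TRIM24 by a log2 fold change of -0.34 (adjusted p = 0.000175 by edgeR) and TRIM33 by -0.25 (adjusted p = 0.00355 by edgeR). That step also moved the median of all genes from 0.03 to -0.11, and 5829 of 13834 genes were then called lower. With library size alone in place of TMM, TRIM24 was at 0.02 and TRIM33 at 0.12, where the median of all genes was 0.20. Against DMSO, compound 1 gave -0.12 (SE 0.10) for TRIM24 and -0.10 (SE 0.13) for TRIM33, and without its replicate 1 these were -0.019 and 0.068. Of the reads per kilobase of the 3 paralogs together, TRIM28 held 95.4% ± 0.283 (SD, n = 3) under DMSO, 94.2% ± 1.44 under compound 1 and 91.4% ± 0.405 under SCH772984, which is again a description since TRIM28 was chosen for its fall.

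The 3 HP1 genes all fell with SCH772984, a direction called for 35.5% of all genes. CBX3 encodes HP1γ, which is found in active as well as silent chromatin (ENSG00000122565, chr7:26201162-26213356, plus strand). It had 292, 297 and 296 CPM with DMSO and 145, 159 and 144 with SCH772984, so the groups lay far apart. Its log2 fold change was -0.99 (SE 0.06, adjusted p = 1.37e-18 by edgeR). CBX1 encodes HP1β (ENSG00000108468, chr17:48070052-48101521, minus strand). It went from 143, 150 and 135 CPM to 84.9, 79.6 and 69.5 CPM without overlap. Its log2 fold change was -0.88 (SE 0.07, adjusted p = 1.5e-14 by edgeR). CBX5 encodes HP1α, the form concentrated at pericentric heterochromatin (ENSG00000094916, chr12:54230940-54280133, minus strand). It went from 94.2, 95.2 and 96.9 CPM to 65.2, 59.3 and 56.7 CPM, again without overlap. Its log2 fold change was -0.67 (SE 0.07, adjusted p = 7.63e-11 by edgeR).

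With compound 1 edgeR called none of the 3, and their values lay on both sides of DMSO. CBX3 had 315, 363 and 347 CPM, all above DMSO, a log2 fold change of 0.22 (SE 0.07) that did not pass the threshold (adjusted p = 0.15 by edgeR). Without replicate 1 of compound 1 it was called higher, at 0.27 (adjusted p = 0.000394 by edgeR). CBX5 had 68.8, 86.8 and 86.3 CPM, all below DMSO, a log2 fold change of -0.24 (SE 0.09, adjusted p = 0.241 by edgeR). CBX5 is the longest of the 10 genes with 15040 bases of exon, and in replicate 1 of compound 1 it stood at a log2 ratio of -0.33 to the other two. Without that library its log2 fold change was -0.14 (adjusted p = 0.239 by edgeR). CBX1 had 136, 138 and 134 CPM and overlapped DMSO, with a log2 fold change of -0.06 (95% interval -0.22 to 0.09). Directly compared, all 3 were lower with SCH772984 than with compound 1, CBX3 by a log2 fold change of -1.20 (SE 0.09, adjusted p = 1.48e-10 by edgeR), CBX1 by -0.80 (SE 0.09, adjusted p = 2.16e-07) and CBX5 by -0.42 (SE 0.11, adjusted p = 0.00175).

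**Figure D2:**
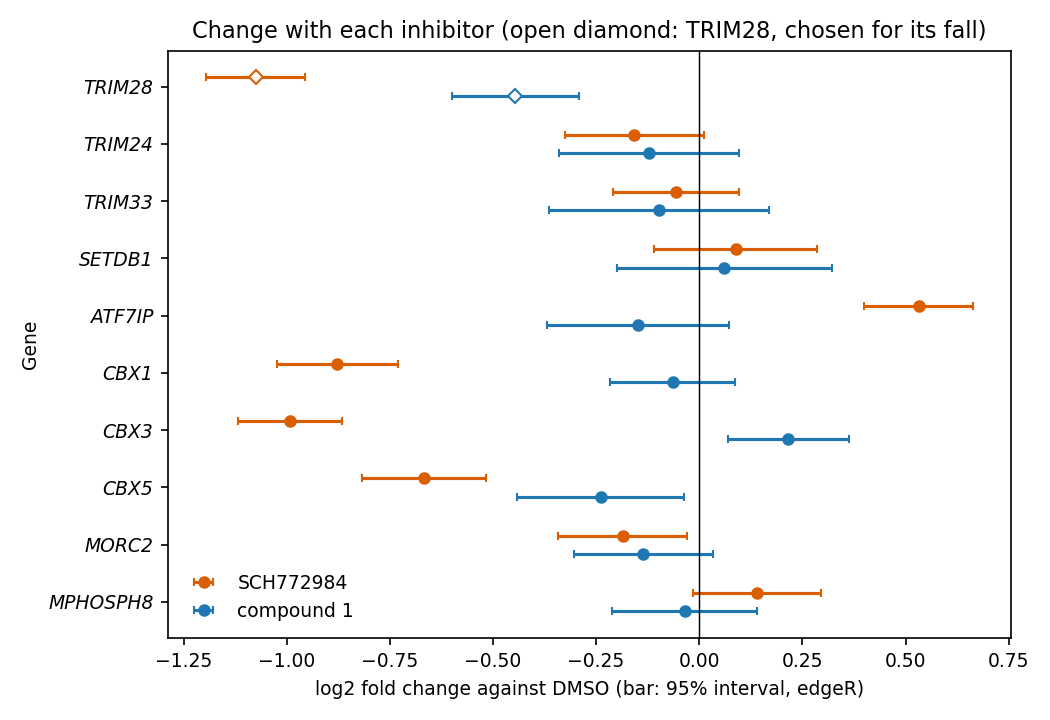
Log2 fold change against DMSO (horizontal axis) of each of the 10 genes with SCH772984 (orange) and compound 1 (blue), with the 95% interval from edgeR, where TRIM28 is an open diamond because it was chosen for its fall. CBX3 lies at -0.99 with SCH772984 and at 0.22 with compound 1, while ATF7IP lies at 0.53 and -0.15.

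The balance among the HP1 genes was taken as each gene's percent of their summed reads per kilobase, a share that does not depend on scaling between libraries. It can depend on a trend with gene length that differs between libraries, as CBX5 has 15040 bases of exon and CBX1 3087. The shares were not computed with that trend removed, so its part in them was not tested. In DMSO, CBX3 held 54.8% ± 1.14 (SD, n = 3), CBX1 39.7% ± 1.31 and CBX5 5.47% ± 0.173. The small CBX5 share rests on division by gene length, as the mean DMSO level was 95.4 CPM for CBX5, 142 for CBX1 and 295 for CBX3. With compound 1, CBX3 held 59.8% ± 1.28, CBX1 35.8% ± 1.63 and CBX5 4.35% ± 0.371, and none of these groups overlapped DMSO. With SCH772984, CBX5 held 6.55% ± 0.353 without overlap with DMSO, whereas CBX3 (52.3% ± 2.49) and CBX1 (41.1% ± 2.24) overlapped it. A two-sided exact permutation test gave p = 0.1 (adjusted p = 0.129 over 9 comparisons) for each of the 7 comparisons without overlap, which is the smallest p that 3 against 3 libraries allow. It gave p = 0.2 for CBX3 and p = 0.5 for CBX1 between SCH772984 and DMSO, by the same exact test. The CBX5 share was larger by 1.08 percentage points with SCH772984 than with DMSO, and the CBX3 share was larger by 5.01 points with compound 1 than with DMSO. Without replicate 1 of compound 1 the differences from DMSO were 5.74 points for CBX3, -4.83 for CBX1 and -0.91 for CBX5.

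**Figure D3:**
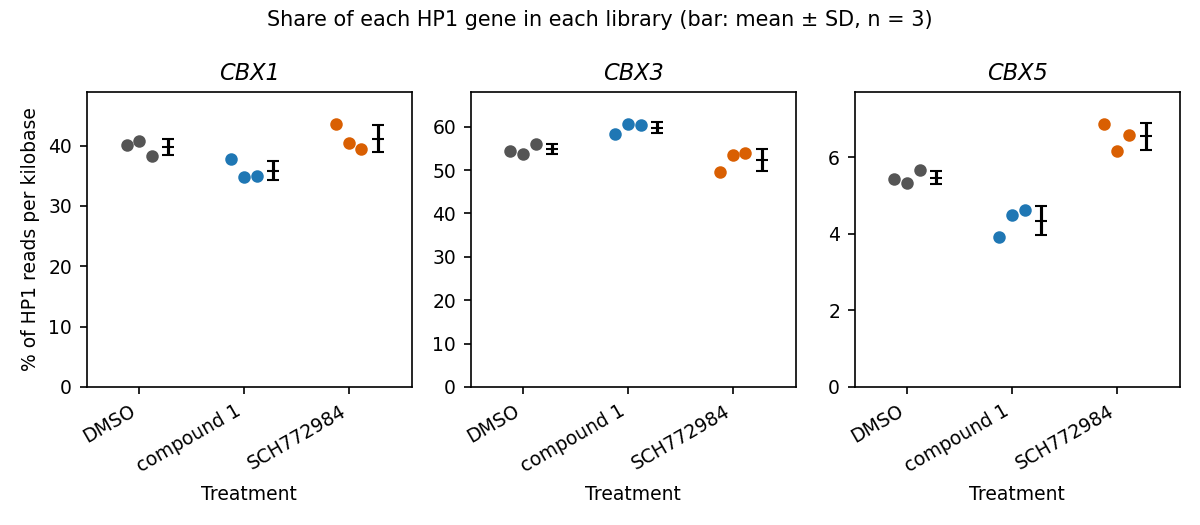
Percent of the summed HP1 reads per kilobase held by CBX1, CBX3 and CBX5 (one panel each, axes from 0) in each library of the 3 treatments, with the mean ± SD (n = 3) beside the points. CBX3 takes its highest shares with compound 1 (58.3% to 60.7%), and CBX5 takes its highest with SCH772984 (6.18% to 6.88%).

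Promoter windows of 300 bases around the RefSeq start (GRCh38.p14) were at hand for 8 of the 10 genes and not for TRIM28 and TRIM24. They are shown for the 3 HP1 genes, which fell together with SCH772984, for ATF7IP, which rose, and for SETDB1, which did not pass the test, each 5′ to 3′ on the gene's strand with capitals at the motifs found.
CBX3, chr7:26201193-26201492, plus strand: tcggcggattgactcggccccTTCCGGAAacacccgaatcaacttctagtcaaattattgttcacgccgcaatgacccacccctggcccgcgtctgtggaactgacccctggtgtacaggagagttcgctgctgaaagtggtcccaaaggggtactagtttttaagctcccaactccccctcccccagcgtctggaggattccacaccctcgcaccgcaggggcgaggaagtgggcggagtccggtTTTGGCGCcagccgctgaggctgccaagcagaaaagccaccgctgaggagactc
CBX5, chr12:54280073-54280372, minus strand: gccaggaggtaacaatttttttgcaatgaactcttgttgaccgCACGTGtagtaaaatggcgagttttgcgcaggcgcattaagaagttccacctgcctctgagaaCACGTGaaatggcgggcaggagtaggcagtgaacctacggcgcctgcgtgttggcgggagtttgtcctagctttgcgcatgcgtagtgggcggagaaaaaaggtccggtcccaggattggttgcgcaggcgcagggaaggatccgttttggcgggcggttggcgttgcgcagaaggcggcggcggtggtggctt
CBX1, chr17:48101137-48101436, minus strand: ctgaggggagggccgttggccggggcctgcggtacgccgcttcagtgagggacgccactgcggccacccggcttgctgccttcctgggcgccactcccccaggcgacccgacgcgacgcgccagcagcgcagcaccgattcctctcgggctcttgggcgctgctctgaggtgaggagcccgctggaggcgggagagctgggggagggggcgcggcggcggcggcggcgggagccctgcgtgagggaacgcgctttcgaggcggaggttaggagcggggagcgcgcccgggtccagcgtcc
ATF7IP, chr12:14365432-14365731, plus strand: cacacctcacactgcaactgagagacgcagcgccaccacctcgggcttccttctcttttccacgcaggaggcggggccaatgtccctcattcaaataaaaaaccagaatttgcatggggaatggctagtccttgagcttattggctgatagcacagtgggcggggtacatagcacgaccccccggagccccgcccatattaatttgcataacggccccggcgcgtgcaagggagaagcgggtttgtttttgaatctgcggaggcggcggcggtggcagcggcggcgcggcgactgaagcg
SETDB1, chr1:150926013-150926312, plus strand: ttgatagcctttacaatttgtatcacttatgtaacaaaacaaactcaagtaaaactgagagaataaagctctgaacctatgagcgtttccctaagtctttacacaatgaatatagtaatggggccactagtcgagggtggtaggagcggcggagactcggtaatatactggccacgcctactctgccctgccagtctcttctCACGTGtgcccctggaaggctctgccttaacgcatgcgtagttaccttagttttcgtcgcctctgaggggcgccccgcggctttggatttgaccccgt

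The motifs, chosen after the data were seen and searched on both strands, were the E-box CACGTG, the ETS site CCGGAAGT and the ETS core CCGGAA within it, the E2F sites TTTGGCGC and TTTCCCGC, AP-1 TGANTCA and CRE TGACGTCA. CBX5 held 2 E-boxes, which start at positions -207 and -144 from the RefSeq start, and SETDB1 held 1 at -48. An E-box stood in 7.43% of the 27305 promoter windows. CBX3 held a pair of overlapping ETS cores on opposite strands at -229 and -227, a motif in 17.6% of windows, and the E2F site TTTGGCGC at -4, found in 0.659%. The windows of CBX1, ATF7IP, TRIM33, MORC2 and MPHOSPH8 held none of these letters. The RefSeq start lies 476 bases from the start in the count table for MORC2, 335 bases for CBX1 and 281 bases for CBX3, so other start sites of these genes are not covered.

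Neighbours of the HP1 genes were measured as well, because the strand setting of the counting is not given in the sources used here, and without strand the reads of overlapping genes cannot be told apart. CBX3 overlaps HNRNPA2B1, an RNA-binding protein gene on the opposite strand, over 368 bases, 7.93% of its exons. HNRNPA2B1 was also lower with SCH772984, by a log2 fold change of -0.83 (SE 0.06, adjusted p = 4.98e-17 by edgeR), and its 7739 to 11245 counts exceeded those of CBX3. CBX5 starts 60 bases from HNRNPA1, with no shared exon, and HNRNPA1 was lower by -0.59 (SE 0.06, adjusted p = 1.53e-11 by edgeR). The processed pseudogenes of CBX3 with most counts were CBX3P2 with up to 30 and CBX3P9 with up to 13, at most 1.44% of the CBX3 count in the same library. The share of CBX3 reads that came from the overlap was not tested.

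SETDB1, the methyltransferase of the complex (ENSG00000143379, chr1:150926263-150964744, plus strand) had 27.5, 28.7 and 29.6 CPM with DMSO, 26.3, 27.3 and 35.6 with compound 1, and 29.2, 31.0 and 31.3 with SCH772984. The groups overlapped, with a log2 fold change of 0.09 (95% interval -0.11 to 0.29, adjusted p = 0.423 by edgeR) with SCH772984 and 0.06 (95% interval -0.20 to 0.32) with compound 1. With library size alone it was called higher with SCH772984 (0.26, adjusted p = 0.0153 by edgeR), and with the trend with gene length removed it was at -0.064. Its exons overlap those of CERS2 on the opposite strand over 948 bases (13.4% of its exons), and CERS2 held 2879 to 4531 counts against 244 to 466 for SETDB1, so the SETDB1 count is uncertain where strand was not used.

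ATF7IP (also called MCAF1, ENSG00000171681, chr12:14365632-14502935, plus strand) protects SETDB1 in the nucleus. It had 141, 145 and 157 CPM with DMSO and 225, 215 and 203 with SCH772984, all above DMSO. Its log2 fold change was 0.53 (SE 0.07, adjusted p = 9.55e-10 by edgeR), the only rise called among the 9. Compound 1 libraries held 109, 153 and 136 CPM and overlapped DMSO, with the lowest value in replicate 1, at a log2 fold change of -0.15 (95% interval -0.37 to 0.07). SCH772984 exceeded compound 1 by 0.69 (SE 0.10, adjusted p = 7.50e-06 by edgeR).

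MORC2, an ATPase that compacts chromatin at HUSH targets (ENSG00000133422, chr22:30925130-30968298, minus strand), had 65.9, 66.7 and 69.2 CPM with DMSO, 62.6, 60.8 and 60.0 with compound 1, and 61.4, 61.9 and 55.0 with SCH772984. Both inhibitor groups lay below DMSO without overlap. The log2 fold change with SCH772984 was -0.19 (SE 0.08, adjusted p = 0.0298 by edgeR) and was called, and that with compound 1 was -0.14 (SE 0.08, adjusted p = 0.461) and was not. The call with SCH772984 was lost with library size alone in place of TMM (-0.01, adjusted p = 0.899 by edgeR), with a filter of 10 counts in every library (-0.11, adjusted p = 0.215), with all 9 libraries in one fit (adjusted p = 0.0561) and without DMSO replicate 3 (adjusted p = 0.0649) or SCH772984 replicate 3 (adjusted p = 0.109). Its antisense gene MORC2-AS1, which overlaps 25.8% of its exons, held 0 to 4 counts.

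MPHOSPH8 (MPP8, ENSG00000196199, chr13:19633681-19673459, plus strand) is the chromodomain subunit by which HUSH reads H3K9 methylation. It had 63.6, 58.2 and 61.5 CPM with DMSO, 58.5, 58.6 and 61.5 with compound 1, and 70.3, 69.2 and 63.6 with SCH772984. The SCH772984 libraries did not overlap DMSO, the lowest of them being just above the highest DMSO library. The log2 fold change was 0.14 (SE 0.08, adjusted p = 0.0988 by edgeR). It was called higher with library size alone (0.31, adjusted p = 0.000368 by edgeR), with at least 10 counts in every library (0.22, adjusted p = 0.0103) and without SCH772984 replicate 3 (0.18, adjusted p = 0.0319).

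Of the 9 genes other than TRIM28, 4 were lower with SCH772984, 1 was higher and 4 did not pass, where 72.8% of the 13834 genes tested were called, 35.5% lower and 37.2% higher. Their median log2 fold change was -0.16, beside 0.03 over all genes. In 6 of the 9 the groups did not overlap, as in 74.3% of all genes. Scaling by library size alone moved the median of all genes up by 0.17, and under it CBX1, CBX3, CBX5 and ATF7IP kept their calls, MORC2 lost its call, and MPHOSPH8 and SETDB1 were called higher. With the trend with gene length removed 6 of the 9 were lower, TRIM24 and TRIM33 being added, and 1 was higher. Under that setting 5829 of all 13834 genes were lower and 4338 higher, with a median of -0.11. Library size alone gave 3911 lower and 6242 higher over all genes.

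With compound 1, edgeR called 0 of the 9 genes, where 0.864% of 12849 genes were called, and DESeq2 called 0 as well. At an unadjusted p under 0.05 there were 2, CBX3 and CBX5, against 15.0% of all genes. In 3 of the 9, CBX3, CBX5 and MORC2, the groups did not overlap, as in 20.9% of all genes. The median was -0.10, beside 0.0024 over all genes. Without replicate 1 of compound 1, CBX3 was the only one called, when 9.56% of 13084 genes were, and the others lay between -0.15 (MORC2) and 0.14 (SETDB1), with ATF7IP at -0.024, CBX1 at -0.060 and MPHOSPH8 at -0.020. In the direct comparison, 66.3% of 13863 genes were called, and of the 9 genes CBX1, CBX3 and CBX5 were lower and ATF7IP higher with SCH772984, while the other 5 did not pass.

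The wider pathway was read from lists of other genes, whose counts with SCH772984 stand beside 35.5% lower, 37.2% higher and a median log2 fold change of 0.03 over all genes. Among KRAB zinc finger genes, which recruit TRIM28 to DNA, 12 of 15 were tested and 4 were lower and 4 higher with SCH772984 (median log2 fold change of -0.03), shares near those of all genes. ZNF274, which binds zinc finger gene clusters, fell (-0.74, SE 0.10) and so did ZNF91, which represses retroelements (-0.48, SE 0.14), while ZNF445, a guardian of imprinted loci, rose (0.51, SE 0.10) and so did ZNF10 (1.22, SE 0.23). ZFP57, the other KRAB protein known for imprinted loci, was at 0 counts in all 9 libraries. With library size alone 2 were lower and 6 higher (median 0.14), where 3911 of all 13834 genes were lower and 6242 higher (median 0.20).

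The list of HUSH subunits, MORC proteins and other SETDB1 or TRIM28 partners had 3 lower and 3 higher of 10 tested (median 0.16), neither share above that of all genes. TASOR2 (FAM208B) fell (-0.68, SE 0.07) and PPHLN1, which encodes the HUSH subunit periphilin, fell (-0.22, SE 0.08). ZNF638, a zinc finger protein that brings HUSH to unintegrated DNA, rose (0.67, SE 0.07), as did TRIM66, the remaining TIF1 paralog (1.33, SE 0.16). TRIM66 was a minor form, at 7.41 CPM ± 1.57 (SD, n = 3) in DMSO and 18.6 ± 2.72 in SCH772984 libraries. With the trend with gene length removed, 4 were lower and 2 higher (median 0.019), and with library size alone 1 was lower and 6 higher (median 0.34), while at least 10 counts in every library gave 1 lower and 4 higher. All 13834 genes had 5829 lower and 4338 higher in the first of these settings (median -0.11). In the second they had 3911 lower and 6242 higher (median 0.20).

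Among the other enzymes of H3K9 methylation, SUV39H1 and SUV39H2, which methylate pericentric chromatin, fell the most. SUV39H1 went from 57.8 CPM ± 0.606 (SD, n = 3) to 17.1 ± 0.884 with SCH772984, a log2 fold change of -1.76 (SE 0.09, adjusted p = 2.31e-21 by edgeR). SUV39H2 went from 36.3 CPM ± 2.38 to 12.6 ± 1.58, a log2 fold change of -1.53 (SE 0.12, adjusted p = 4.76e-16). SETDB2 rose (0.42, SE 0.16), and EHMT1, EHMT2 and WIZ, of the G9a/GLP complex, were not called. The list counted 2 lower and 1 higher of 6 (median -0.10), though 5 were lower and 0 higher with the trend with gene length removed, and 2 lower and 2 higher with library size alone (median 0.071). Of all 13834 genes, 5829 were lower and 4338 higher with the length trend removed. Those with library size alone were 3911 lower and 6242 higher (median 0.20). The call of SETDB2, the only one higher, was lost without DMSO replicate 2, SCH772984 replicate 2 or SCH772984 replicate 3.

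Of 8 demethylases that remove H3K9 methylation, 5 were higher and 0 lower with SCH772984, where 37.2% of all genes were higher and 35.5% lower (6 higher and 0 lower at an unadjusted p under 0.05, and 5 and 0 by DESeq2). KDM4B rose from 64.7 CPM ± 2.97 (SD, n = 3) to 108 ± 6.07 (0.74, SE 0.07), and KDM4C from 20.3 ± 1.34 to 32.7 ± 0.574 (0.68, SE 0.10). Their median was 0.33. With the trend with gene length removed 3 were higher and 1 lower (median 0.15). With library size alone 7 were higher and 0 lower (median 0.50), with at least 10 counts in every library 6 of 7 were higher and 0 lower, and without SCH772984 replicate 2 there were 5 higher and 1 lower. Over all 13834 genes, library size alone gave 6242 higher and 3911 lower (median 0.20). Removal of the length trend gave 4338 higher and 5829 lower (median -0.11).

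Among NuRD subunits, the remodeling and deacetylase complex that TRIM28 also recruits, 7 of 13 were lower and 2 higher (median -0.42). GATAD2A (-1.32, SE 0.06) and MTA2 (-1.10, SE 0.07) fell. Within the same complex the ATPase CHD3 (1.41, SE 0.07) and MTA3 (0.68, SE 0.09) rose. The SUMO conjugation and removal list had 9 of 16 lower and 3 higher (median -0.29). It included the E1 subunit UBA2 (-1.23, SE 0.06) and SUMO3 (-1.06, SE 0.07), and the higher genes included the E3 ligase PIAS3 (0.44, SE 0.08) and the protease SENP2 (0.30, SE 0.08). Proteins that bind HP1 had 7 of 10 lower and 2 higher (median -0.62). INCENP of the chromosomal passenger complex (-1.61, SE 0.07) and the histone chaperone subunit CHAF1A (-1.60, SE 0.08) fell, both known from dividing cells, while ATRX (0.63, SE 0.07) and POGZ (0.23, SE 0.07) rose. With library size alone these 3 lists had 6, 8 and 6 lower and 3, 6 and 3 higher, with medians of -0.24, -0.11 and -0.45. All 13834 genes then had 3911 lower and 6242 higher, with a median of 0.20. With the trend with gene length removed the 3 lists had 9, 10 and 7 lower and 2, 1 and 1 higher, with medians of -0.59, -0.43 and -0.72. That setting gave 5829 lower and 4338 higher over all genes, with a median of -0.11.

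**Figure D4:**
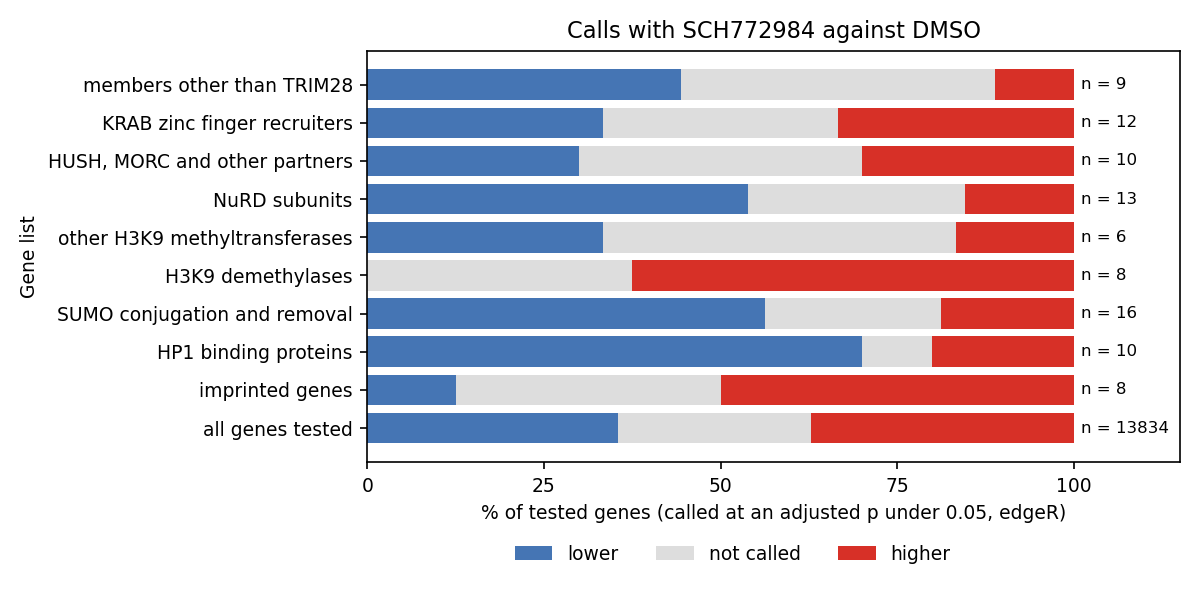
Percent of the tested genes of each list that edgeR called lower (blue) or higher (red) or did not call (grey) with SCH772984 against DMSO, with the number tested at the right and all 13834 tested genes in the last bar. Among HP1 binding proteins 7 of 10 are lower, among H3K9 demethylases 5 of 8 are higher and 0 lower, and over all genes 35.5% are lower and 37.2% higher.

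Imprinted genes are a known class of TRIM28 targets, and many were at or near 0 counts in these cells. Of 16 listed, 8 passed the filter on low counts, 4 of them higher and 1 lower with SCH772984 (median 0.77), where 37.2% of all genes were higher and 35.5% lower. CDKN1C, a cell cycle inhibitor, rose from 1.5 CPM ± 0.378 (SD, n = 3) to 7.37 ± 1.57 (log2 fold change of 2.29, SE 0.26, adjusted p = 1.99e-10 by edgeR), and the long RNA KCNQ1OT1 from the same domain rose from 5.15 ± 0.872 to 11.7 ± 1.27 (1.17, SE 0.18). GRB10, an adaptor that dampens growth factor signaling, fell (-0.81, SE 0.10). Genes that pass the filter only where they are high have to differ, so the count over those 8 is not a count over the list. With the trend with gene length removed, 3 were higher and 1 lower (median 0.27), and with at least 10 counts in every library 3 of 6 were higher and 1 lower (median 0.82). Over all 13834 genes, 4338 were higher and 5829 lower with the length trend removed (median -0.11).

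With compound 1 edgeR called 0 genes in each of these 8 lists, and DESeq2 called 0 as well. With the trend with gene length removed 1 SUMO gene was lower and 1 imprinted gene higher, and with no filter on low counts 1 imprinted gene was higher. Over all genes these settings called 347 of 12849 and 417 of 25883. At an unadjusted p under 0.05 there were 2 of 12 KRAB zinc finger genes, 0 of 10 HUSH and other partners, 3 of 13 NuRD subunits, 2 of 6 methyltransferases, 3 of 8 demethylases, 2 of 16 SUMO genes, 1 of 10 HP1 binding proteins and 1 of 7 imprinted genes, against 15.0% of all genes. Without replicate 1 of compound 1 the adjusted calls were 2 partners higher, 3 NuRD subunits lower, 1 methyltransferase lower, 2 demethylases lower, 1 SUMO gene lower and 1 imprinted gene higher, beside 9.56% of all genes.

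The likeness of each gene's levels to those of TRIM28 was measured as Pearson's r of log2 CPM over the 9 libraries, which fall into 3 treatment groups and share their scaling factors, so r mostly reads the order of the groups. Of 9958 genes with a mean of at least 5 CPM, the most similar were FOXD1 (r = 0.987), NT5DC2 (0.987), SENP3 (0.986), POFUT1 (0.986) and PELP1 (0.985). FOXD1, a forkhead transcription factor, had 78.4 CPM ± 3.71 (SD, n = 3) under DMSO, which compares with 48.3 ± 3.40 under compound 1 and 21.2 ± 1.56 under SCH772984. SENP3, a SUMO protease, had 58.6 ± 4.75, 47.0 ± 4.40 and 29.6 ± 1.63 CPM in that order of treatments. CBX1 was the most similar of the 9 partners (r = 0.909, rank 984 of 9958). CBX5 (0.867, rank 2105), MORC2 (0.805, rank 3084) and CBX3 (0.794, rank 3206) followed, so many other genes were nearer to TRIM28 than these partners. TRIM24 (0.316), TRIM33 (-0.0647), SETDB1 (-0.395), MPHOSPH8 (-0.671) and ATF7IP (-0.773) came after them.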

How the data were processed

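The authors deposited raw counts of reads per gene, 1 table of 58735 genes and 9 libraries, without normalization. The submitters' processing notes name HISAT2 2.0.5, featureCounts 1.5.0-p3 and hg38. The strand setting is not given in the sources used here. All 10 genes had the coordinates and exon length of GENCODE release 29. Libraries were grouped by their labels and compared in pairs with edgeR 4.0.16 in R 4.3.3 (TMM, filterByExpr with a minimum count of 10, robust quasi-likelihood test, Benjamini-Hochberg adjustment over all genes tested), steps tested on simulated data. Both comparisons with DMSO share the DMSO libraries. Intervals are 95%. Log2 CPM for r used a pseudocount of 0.5.

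The genes and lists were chosen with earlier results of these data known. A test of TRIM28 between the inhibitors had been planned, but its p is not given, since the same libraries chose the gene. Named were the 10 genes, the 2 list genes with the smallest adjusted p in each direction with SCH772984, list genes called with compound 1, the 5 protein-coding genes most like TRIM28, and overlapping genes. ZFP57, EHMT1, EHMT2 and WIZ were named after their values were seen. Alternatives were library size alone, RLE factors, other count filters, 1 fit of all libraries, a replicate block, DESeq2 1.42.0, an unadjusted p, removal of the trend with gene length (spline with 5 degrees of freedom), leaving out each library, and, for shares, counts without division by length.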

Additional observations from a re-analysis of the deposited data

How the results depend on the processing

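The number of the 9 partners lower with SCH772984 stayed within 1.5 times of 4, and the calls of CBX1, CBX3, CBX5 and ATF7IP held, under each alternative run. The number higher was 1 as reported, 3 with library size alone, 2 with at least 10 counts in every library, and 1 to 2 with each library left out, 2 being without SCH772984 replicate 3. With compound 1 the number lower was 1 and the number higher 1 at an unadjusted p under 0.05, and the number higher was 0 to 1 with each library left out, 1 being CBX3 without compound 1 replicate 1. Between the inhibitors the number higher with SCH772984 was 2 with library size alone and 2 with at least 10 counts in every library, MPHOSPH8 being the gene gained. The shares of the HP1 genes kept their direction without division by length and with each library left out. Division by length weights each gene alike in every library, so leaving it out does not address a length trend that differs between libraries. Removal of that trend was not run for the shares.

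Signs turned only for genes that did not pass the test. With SCH772984 against DMSO these were TRIM24 (0.017) and TRIM33 (0.12) with library size alone, TRIM33 (0.023) with at least 10 counts in every library and SETDB1 (-0.064) with the length trend removed. Between the inhibitors they were TRIM24 (0.11) and MORC2 (0.10) with library size alone, TRIM24 (0.049) and MORC2 (0.033) with at least 10 counts in every library, and TRIM33 (-0.16) and SETDB1 (-0.12) with the length trend removed. With each library left out, the range between the inhibitors was -0.13 to 0.068 for TRIM24, -0.12 to 0.13 for TRIM33, -0.047 to 0.16 for SETDB1 and -0.079 to 0.017 for MORC2, and against DMSO with compound 1 it was -0.19 to 0.068 for TRIM33 and -0.094 to 0.14 for SETDB1. The cause was not tested.

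Deviations of libraries with the same replicate number correlated by -0.0787 to 0.107, and those with unlike numbers by -0.101 to 0.149. With 3 libraries a group these values cannot decide whether the numbers pair the samples. The replicate block raised the number of genes called with compound 1 from 111 to 412 of 12849. With the replicate number as a block, 4 partners were lower and 1 higher with SCH772984, 0 lower and 0 higher with compound 1, and 3 lower and 1 higher between the inhibitors, as without it. With 3 libraries a group, the 95% intervals of the uncalled genes with compound 1 reached from -0.44 (CBX5) to 0.36 (CBX3) on the log2 scale. In the lists of other genes the block added 1 demethylase lower and 1 imprinted gene higher with compound 1.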
